A study of Homo sapiens with 14 samples.

Results

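Genes of 10 erythroid transcription factors (GATA1, GATA2, KLF1, TAL1, GFI1B, NFE2, LMO2, ZFPM1, BCL11A and MYB) were taken by symbol from the K562 expression table, and all 10 were found among its 23866 gene entries kept. They were followed through 10 K562 libraries, with 4 SIGM5 libraries beside them. K562 is an erythroleukaemia line that makes embryonic and fetal globins, and SIGM5 is an acute myeloid leukaemia line. Polyadenylated RNA was sequenced from 14 libraries in 7 groups of 2. K562 clone K01, TET2+/+ in the series text, received the solvent DMSO, 12.5 µM TETi76, 100 µM ascorbate, or 12.5 µM TETi76 together with 100 µM ascorbate. TETi76 is a small molecule that, by the series title, blocks TET dioxygenases, the enzymes that oxidise 5-methylcytosine, and ascorbate (vitamin C) is known to support the activity of these enzymes. K562 clone K18, TET2-/-, received DMSO, and SIGM5 received DMSO or 12.5 µM TETi76. Treatment lasted 24 h. Each TET2 genotype was 1 clone, so genotype and clone cannot be told apart. The labels number the replicates without saying that they were separate cultures, so the p-values measure the spread between these libraries, which may be technical.

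Red cell formation is directed by a small circuit of nuclear proteins. GATA2 acts in stem and progenitor cells, and GATA1 takes over many of its sites as erythroid cells mature, an exchange known as the GATA switch. TAL1 binds E-box DNA and is joined to GATA factors through the bridging proteins LMO2 and LDB1, while ZFPM1 (FOG1) is the cofactor that GATA1 needs at many sites. KLF1 binds CACCC motifs of globin, haem and red cell membrane genes, and NFE2 pairs with small Maf proteins at globin control regions. GFI1B is a repressor that recruits LSD1 and CoREST, BCL11A silences fetal globin, and MYB keeps erythroid progenitors dividing.

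Promoter sequences came from RefSeq (GRCh38.p14) and covered the 250 bases before each annotated start. Entries matched 8 of the 10 genes, with 15 promoters in all, and LMO2 and NFE2 had none. The GATA motif was searched on both strands with 4 spellings, namely AGATAA and its variant AGATAG, then TGATAA and its variant TGATAG. It occurred in 3 of the 15 promoters, against 22.3% of all 35116 promoters of that length. These 3 are shown because they belong to KLF1, which had the largest fall of the 10 genes under TETi76, to GFI1B, which also fell, and to TAL1, which was not called in any comparison. Each runs 5′ to 3′ on the strand of its gene and ends at the base before the start, with GATA matches in capitals (a match on the other strand reads as its reverse complement). The KLF1 window is chr19:12887202-12887451 on the minus strand, that of GFI1B promoter 2 is chr9:132978444-132978693 on the plus strand, and that of TAL1 promoter 1 is chr1:47232336-47232585 on the minus strand.
KLF1 promoter: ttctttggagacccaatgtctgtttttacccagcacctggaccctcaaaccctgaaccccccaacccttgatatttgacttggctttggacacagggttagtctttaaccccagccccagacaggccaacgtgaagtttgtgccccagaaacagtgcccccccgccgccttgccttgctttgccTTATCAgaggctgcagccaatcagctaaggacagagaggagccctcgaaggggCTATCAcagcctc
GFI1B promoter 2: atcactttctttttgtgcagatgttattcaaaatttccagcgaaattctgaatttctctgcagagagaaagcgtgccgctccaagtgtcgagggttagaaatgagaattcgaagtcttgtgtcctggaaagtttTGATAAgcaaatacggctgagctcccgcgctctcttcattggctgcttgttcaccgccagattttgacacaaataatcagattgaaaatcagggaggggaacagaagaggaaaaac
TAL1 promoter 1: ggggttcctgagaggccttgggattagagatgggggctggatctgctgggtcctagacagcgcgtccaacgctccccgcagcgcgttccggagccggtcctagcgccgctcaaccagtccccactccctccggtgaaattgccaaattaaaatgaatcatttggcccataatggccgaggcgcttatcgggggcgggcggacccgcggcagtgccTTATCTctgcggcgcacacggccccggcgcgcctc
The KLF1 window held 2 GATA matches, at 66 to 61 and at 13 to 8 bases before the start. GFI1B promoter 2 held 1 at 116 to 111 bases and TAL1 promoter 1 held 1 at 35 to 30 bases. A CACCC-type motif, CCNCNCCC on either strand, was in 11 of the 15 promoters, against 53.4% of all promoters, and the KLF1 window did not hold it. Promoters of 1 gene were counted separately, and 5 of the 15 belonged to BCL11A. Counted by gene, the CACCC-type motif was in 7 of the 8 genes. No share by gene was counted over all genes, and a gene with several promoters has more chances of a match. The share of 53.4% is per promoter and is not a like figure. The E-box CAGNTG was in 5 of the 15, against 42.5% of all promoters. A match is a run of letters in this window and was not tested for binding.

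In DMSO-treated K01 cells 9 of the 10 factors were expressed. Levels are in FPKM, fragments per unit of gene length and of library size, so that genes can be compared per length. GATA1 stood at 185 and 164 FPKM in the 2 libraries and NFE2 at 151 and 153 FPKM, the highest levels of the 10. MYB (77.7 and 81.5 FPKM) and KLF1 (74.7 and 77.0 FPKM) came next, close together, with libraries of 77.7 and 77.0 FPKM nearest each other. GATA2 had 54.2 and 49.6 FPKM, and the repressor GFI1B 43.6 and 41.8 FPKM. The adaptor LMO2 (34.2 and 30.6 FPKM) and its partner TAL1 (28.3 and 31.1 FPKM) overlapped. The cofactor ZFPM1 was low, at 6.08 and 5.21 FPKM, and BCL11A was listed at 0 in both libraries. BCL11A was also listed at 0 in 8 of all 10 K562 libraries, with 0.0591 FPKM in TETi76 replicate 2 and 0.0684 FPKM in K18 replicate 2, so it was not tested in K562.

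**Figure D1:**
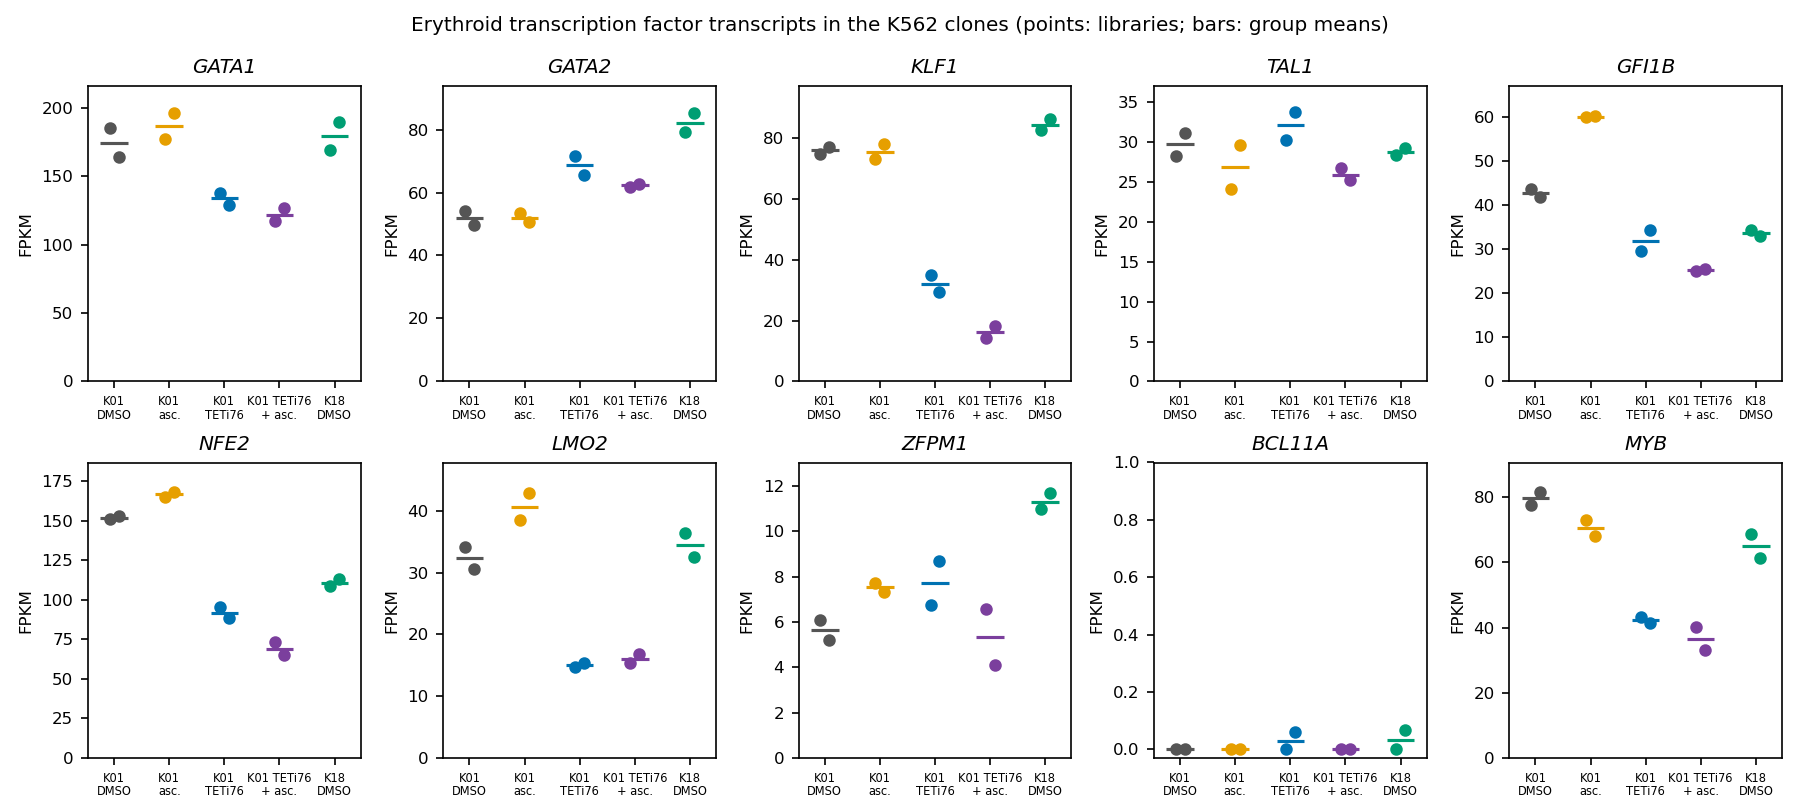
FPKM of the 10 factors in the 5 K562 groups, with 1 point per library, a bar at each group mean and axes that start at 0 (for BCL11A just below 0). KLF1 falls from a mean of 75.9 FPKM in DMSO to 32.1 with TETi76 and 16.3 with TETi76 and ascorbate, while TAL1 stays between 24.1 and 33.8 FPKM in every library.

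TETi76 lowered most of these transcripts in K01. KLF1, LMO2, MYB, NFE2, GFI1B and GATA1 fell, GATA2 rose, and TAL1 and ZFPM1 were not called. Of the 9 factors tested, 6 were lower and 1 was higher at an adjusted p under 0.05 (limma on log2(FPKM + 1) over 12530 genes, Benjamini-Hochberg). Over all genes tested 23.3% were called, 13.7% lower and 9.61% higher. The median log2 change of the 9 factors was -0.41, against -0.01 over all genes tested.

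Among the GATA factors, GATA1 fell to 138 and 129 FPKM, both libraries below both DMSO libraries (log2 -0.38, SE 0.09, adjusted p = 0.0142). GATA2 rose to 71.7 and 65.7 FPKM, again without overlap with its DMSO values (log2 0.40, SE 0.08, adjusted p = 0.00622). The GATA1 call was lost without DMSO replicate 1 (adjusted p = 0.101) or TETi76 replicate 2 (adjusted p = 0.0867) and with quantile normalization (adjusted p = 0.0589), and that of GATA2 without DMSO replicate 2 (adjusted p = 0.0503). The ratio of GATA2 to GATA1 FPKM was 0.293 and 0.303 in the DMSO libraries and 0.518 and 0.508 in the TETi76 libraries, which describes these values and was not tested. GATA2-AS1, which lies on the opposite strand of GATA2, had 3.88 to 8.81 FPKM over all K562 libraries and was not called with TETi76 (log2 -0.22, adjusted p = 0.609).

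Of the proteins that join GATA1 at DNA, LMO2 had 14.8 and 15.4 FPKM with TETi76, below its DMSO values of 34.2 and 30.6 FPKM (log2 -1.05, SE 0.10, adjusted p = 0.000134). Its partner TAL1 had 30.3 and 33.8 FPKM, which overlapped DMSO (log2 0.11, SE 0.11, adjusted p = 0.539). ZFPM1 had 6.77 and 8.68 FPKM, above both DMSO libraries, but the difference was not called (log2 0.39, SE 0.19, adjusted p = 0.188).

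Of the other lineage and progenitor factors, KLF1, NFE2 and MYB fell. KLF1 had 35.0 and 29.3 FPKM with TETi76, against 74.7 and 77.0 FPKM in DMSO (log2 -1.22, SE 0.12, adjusted p = 0.000109). NFE2 had 95.5 and 88.3 FPKM, against 151 and 153 FPKM (log2 -0.72, SE 0.07, adjusted p = 0.000118). MYB had 43.2 and 41.3 FPKM, against 77.7 and 81.5 FPKM (log2 -0.90, SE 0.10, adjusted p = 0.000283). KLF1, NFE2, MYB and LMO2 kept these calls in every alternative tried, leaving out each library included. The KLF1 to GATA1 ratio of FPKM values went from 0.404 and 0.471 in DMSO to 0.253 and 0.227.

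The repressor GFI1B had 29.5 and 34.4 FPKM with TETi76, below 43.6 and 41.8 FPKM in DMSO (log2 -0.41, SE 0.09, adjusted p = 0.00909). Its call was lost without DMSO replicate 1 (adjusted p = 0.0617) or TETi76 replicate 1 (adjusted p = 0.0611). TSC1, a growth regulator on the opposite strand that overlaps GFI1B in GENCODE v29, rose from 2.81 and 2.38 to 6.57 and 6.88 FPKM (log2 1.10, adjusted p = 0.000792). The sources used here do not say whether reads were counted by strand, so reads of the overlapping stretch cannot be told apart. In bulk RNA, fewer cells of a type and less RNA per cell cannot be told apart either, which holds for every factor here.

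**Figure D2:**
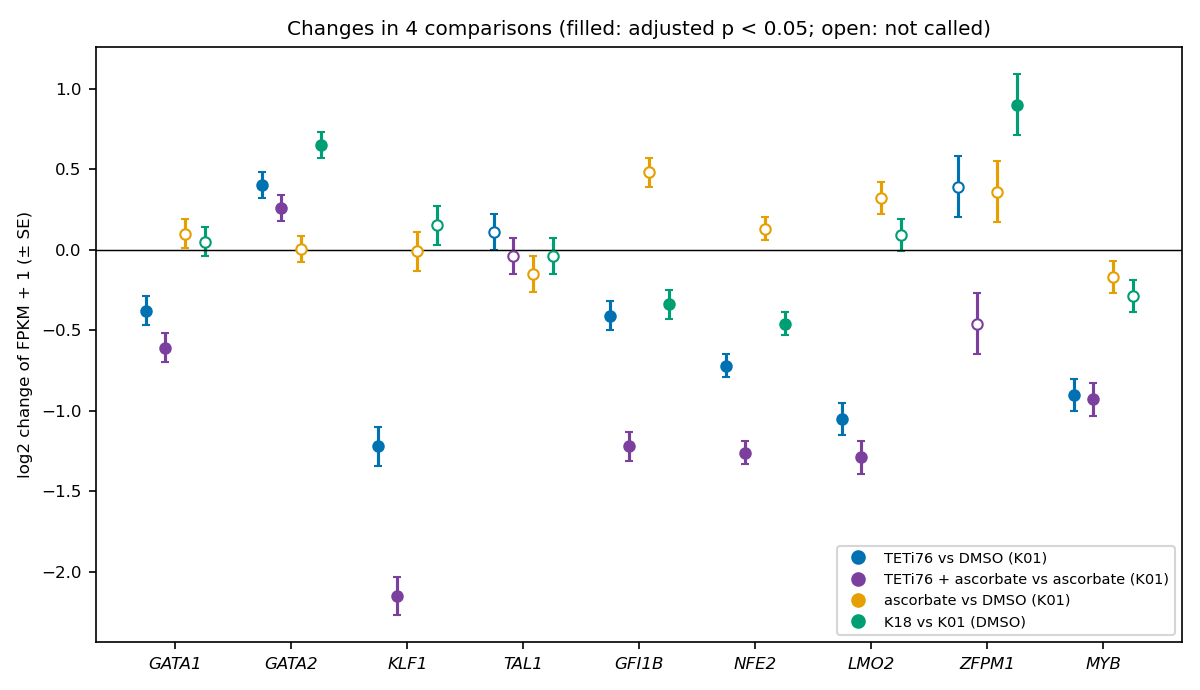
Log2 change of FPKM + 1 (± SE) for the 9 tested factors in 4 comparisons, with filled points for adjusted p under 0.05 and open points for the rest. With TETi76, KLF1 lies at -1.22 without ascorbate and -2.15 with it, while GATA2 lies above 0 in both.

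Cell identity was checked with fixed marker lists. All 9 erythroid markers reached 1 FPKM in K01, with a summed level of 8566 to 9919.8 FPKM in DMSO and 8179 to 8493 FPKM with TETi76. Of 9 myelomonocytic markers 3 reached 1 FPKM, with sums of 45.0 to 53.1 FPKM in DMSO and 65.4 to 74.2 FPKM with TETi76, where CSF1R was listed at 0. These 3 did not move alike. SPI1, which returns below among the myeloid factors, had 9.49 and 6.23 against 23.4 and 23.7 FPKM. CD33 had 6.82 and 6.95 against 12.4 and 8.21 FPKM. LYZ, the largest part of the sum, overlapped (35.1 and 30.8 against 35.4 and 30.3 FPKM). Of 8 megakaryocyte markers 1 reached 1 FPKM in DMSO and 2 with TETi76. Their sums were 2.98 to 4.07 and 3.53 to 3.63 FPKM, with GP9 and PF4 listed at 0. The 7 stromal or epithelial markers summed to 401 to 439.8 FPKM in DMSO and 899 to 926 FPKM with TETi76, almost all of it the keratins KRT8 (196 and 186 against 527 and 517 FPKM) and KRT18 (201 and 164 against 329 and 370 FPKM). Their part in the falls of the erythroid factors was not tested. TET2 had 1.99 and 2.4 FPKM in K01 and 3.31 and 2.95 FPKM in K18, labelled TET2-/-, with DMSO (log2 0.37, adjusted p = 0.313), so its transcript was not lower in K18. A transcript level does not check an edit that leaves the transcript in place.

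The genes these factors are known to work with or to act on were read from 9 lists. Where counts with a library left out are given, no share of all genes in the same fit stands beside them. Of 8 tested globins 4 fell with TETi76 and none rose, with a median log2 change of -0.21. HBQ1, the theta globin, had 25.3 and 34.8 FPKM in DMSO and 9.66 and 14.7 FPKM with TETi76 (log2 -1.25, SE 0.21, adjusted p = 0.00283). The embryonic zeta globin HBZ had 1047 and 1094 FPKM against 729 and 771 FPKM (log2 -0.51, SE 0.12, adjusted p = 0.0134). HBA1 changed by log2 -0.26 (SE 0.06, adjusted p = 0.0146), a value that is uncertain because HBA1 and HBA2 are near-identical copies. The HBZ call was lost without DMSO replicate 2 (adjusted p = 0.0746) or TETi76 replicate 1 (adjusted p = 0.075), that of HBA1 without DMSO replicate 2 (0.095) or TETi76 replicate 2 (0.101), and without DMSO replicate 2 only 2 globins were called lower and 1, the fetal globin HBG1, was called higher. HBG1 had 918 and 1344 FPKM in DMSO and 1217 and 1247 FPKM with TETi76 (log2 0.15, adjusted p = 0.517 with all libraries) and was named after its value was seen.

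Of 10 haem synthesis genes 8 fell and none rose, with a median of -0.53. The enzyme UROD (277 and 264 against 148 and 139 FPKM, log2 -0.91, adjusted p = 1.38e-05) fell without overlap, and PPOX fell by log2 -1.10 (SE 0.20, adjusted p = 0.004). With any 1 of the 4 libraries left out 3 to 5 of the 10 were called, and UROD and PPOX were called in each case. Of 15 red cell membrane and surface genes 7 fell and 1 rose, with a median of -0.45. The spectrin SPTB had 29 and 27.9 against 11.1 and 11.7 FPKM (log2 -1.25, adjusted p = 7.14e-05), and the glycophorin GYPC had 180.0 and 171 against 98.6 and 97.8 FPKM (log2 -0.83, adjusted p = 3.13e-05). The transferrin receptor TFRC was the member that rose (log2 0.21, adjusted p = 0.027), named after its value was seen, and it was not called with any 1 library left out.

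The other lists concern the proteins around the factors. Of 12 partners of the LMO2-LDB1 complex 5 fell and 1 rose (median -0.19). LDB1 itself had 71.0 and 74.5 against 52.5 and 51.1 FPKM (log2 -0.48, SE 0.07, adjusted p = 0.00122), LMO4 changed by log2 -0.94 (adjusted p = 0.00155) and RUNX1 by log2 -0.59 (adjusted p = 0.0233), the last not called with any 1 library left out. With a library left out 2 to 4 of the partners were called lower and none higher. Of 8 partners and competitors of NFE2 2 rose and none fell (median 0.34). The small Maf protein MAFK, with which NFE2 pairs, had 4.88 and 5.37 against 10.3 and 13 FPKM (log2 1.04, SE 0.20, adjusted p = 0.00526), and the repressor BACH1, which competes for Maf proteins, had 17 and 15.2 against 24.3 and 21.6 FPKM (log2 0.49, SE 0.11, adjusted p = 0.0123). BACH1 was not called without DMSO replicate 2 (adjusted p = 0.0871) or TETi76 replicate 1 (adjusted p = 0.081).

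Of 15 tested corepressors of GFI1B, FOG1 and BCL11A 7 fell and none rose, but the median was -0.12 and 1 to 4 were called with a library left out. MBD3 of the NuRD complex changed by log2 -0.47 (adjusted p = 0.0053), RBBP4 by log2 -0.46 (adjusted p = 0.00802) and the CoREST subunit RCOR1 by log2 -0.53 (adjusted p = 0.0234). RCOR1 was not called with any 1 library left out, and RBBP4 was not called without DMSO replicate 1 (adjusted p = 0.0507) or TETi76 replicate 2 (adjusted p = 0.0538). Of 15 other erythroid transcription factors 6 fell and 1 rose (median -0.47), with 4 to 6 called lower and 0 to 1 higher when a library was left out. STAT5A, which relays erythropoietin receptor signals, had 120.1 and 109 against 57.3 and 53.3 FPKM (log2 -1.03, SE 0.07, adjusted p = 1.66e-05). Its relative STAT5B changed by log2 -0.85 (adjusted p = 0.000131) and the KLF family repressor KLF3 by log2 -0.63 (adjusted p = 0.00517).

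Few genes of neighbouring lineages could be tested. Only 4 of 13 megakaryocyte genes and 3 of 8 myeloid transcription factors passed the filter on low values. Of these, 2 megakaryocyte genes fell and 1 rose, and 1 myeloid factor fell and 1 rose. TUBB1, a platelet tubulin, had 16.9 and 15.2 against 5.73 and 4.49 FPKM (log2 -1.49, adjusted p = 0.00105), and GP1BB changed by log2 -0.72 (adjusted p = 0.0213, lost without DMSO replicate 2 at 0.137 or TETi76 replicate 1 at 0.134). SPI1 (PU.1), a myeloid factor known to oppose GATA1, had 9.49 and 6.23 FPKM in DMSO and 23.4 and 23.7 FPKM with TETi76 (log2 1.49, SE 0.16, adjusted p = 0.000242). The megakaryocyte gene that rose was the integrin subunit ITGB3 (log2 0.79, adjusted p = 0.0283), named after its value was seen. It had 0.509 and 0.262 FPKM in DMSO and 1.41 and 1.36 FPKM with TETi76, so it passed the filter only through the groups where it was higher, and it was not called with any 1 library left out. CEBPB changed by log2 -0.37 (adjusted p = 0.0482) and was not called with any 1 library left out.

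**Figure D3:**
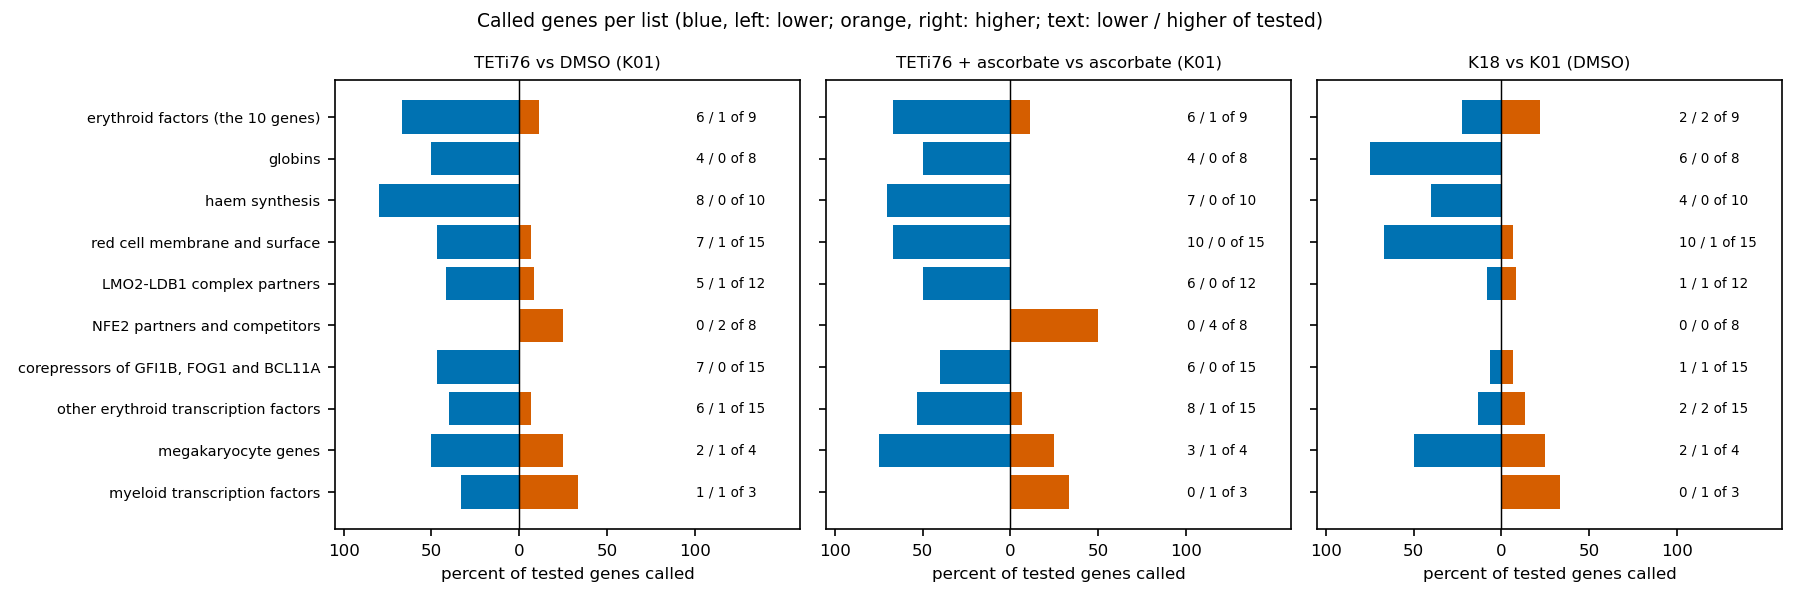
Percent of tested genes called lower (blue, to the left) and higher (orange, to the right) in each list for 3 comparisons, with the counts at the right of each panel. With TETi76 8 of 10 haem synthesis genes were lower, and with TETi76 in the presence of ascorbate 4 of 8 NFE2 partners and competitors were higher.

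Ascorbate alone moved none of the factors past the threshold. limma called 0 of the 9, against 0.479% of all genes tested (0.168% higher and 0.311% lower), and 2 had an unadjusted p under 0.05. GFI1B had 59.8 and 60.2 FPKM, above its DMSO values of 43.6 and 41.8 FPKM (log2 0.48, SE 0.09, unadjusted p = 0.000323, adjusted p = 0.0579). LMO2 had 38.5 and 42.9 FPKM, above 34.2 and 30.6 FPKM (log2 0.32, SE 0.10, unadjusted p = 0.0122, adjusted p = 0.262). KLF1, at 73.0 and 77.9 FPKM, and GATA2, at 53.5 and 50.5 FPKM, overlapped DMSO. GATA1 (177 and 196 FPKM) and TAL1 (24.1 and 29.6 FPKM) overlapped it too. NFE2 (165 and 168 FPKM) and ZFPM1 (7.74 and 7.34 FPKM) stood above their DMSO values and MYB (72.9 and 68.1 FPKM) below them, with log2 differences of 0.13, 0.36 and -0.17 that were not called.

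In the presence of ascorbate TETi76 again lowered factors of the circuit. KLF1, LMO2, NFE2, GFI1B, MYB and GATA1 fell against ascorbate alone and GATA2 rose, so that 6 of the 9 factors were lower and 1 was higher. Over all genes 30.7% were called, 17.8% lower and 12.8% higher. The median over the 9 factors was -0.93, against -0.01 over all genes.

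KLF1 had 14.4 and 18.1 FPKM, against 73.0 and 77.9 FPKM with ascorbate alone (log2 -2.15, SE 0.12, adjusted p = 2.97e-06). NFE2 had 73.1 and 65.3 FPKM, against 165 and 168 FPKM (log2 -1.26, SE 0.07, adjusted p = 3.66e-06). GFI1B had 24.9 and 25.5 FPKM, against 59.8 and 60.2 FPKM (log2 -1.22, SE 0.09, adjusted p = 1.54e-05). These groups lay far apart relative to the gap between their own libraries.

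LMO2 had 15.3 and 16.8 FPKM, against 38.5 and 42.9 FPKM (log2 -1.29, SE 0.10, adjusted p = 3.04e-05). MYB had 40.1 and 33.1 FPKM, against 72.9 and 68.1 FPKM (log2 -0.93, SE 0.10, adjusted p = 0.000164). GATA1 had 117 and 127 FPKM, against 177 and 196 FPKM (log2 -0.61, SE 0.09, adjusted p = 0.0009). All 6 of these factors were called lower whichever of the 4 libraries was left out.

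GATA2 had 61.9 and 62.8 FPKM, against 53.5 and 50.5 FPKM (log2 0.26, SE 0.08, adjusted p = 0.0325). That call was lost when any 1 of the 4 libraries was left out (adjusted p from 0.0607 to 0.148) and when only the groups compared were fitted (adjusted p = 0.0651). TAL1, at 26.7 and 25.2 FPKM, overlapped ascorbate alone (log2 -0.04, SE 0.11). ZFPM1 had 6.57 and 4.1 FPKM, both below ascorbate alone, and was not called (log2 -0.46, SE 0.19, adjusted p = 0.107), although it was without the first library of the combination (log2 -0.74, adjusted p = 0.0204). The GATA2 to GATA1 ratio was 0.302 and 0.257 with ascorbate and 0.529 and 0.495 with the combination, and the KLF1 to GATA1 ratio was 0.412 and 0.397 against 0.123 and 0.143.

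**Figure D4:**
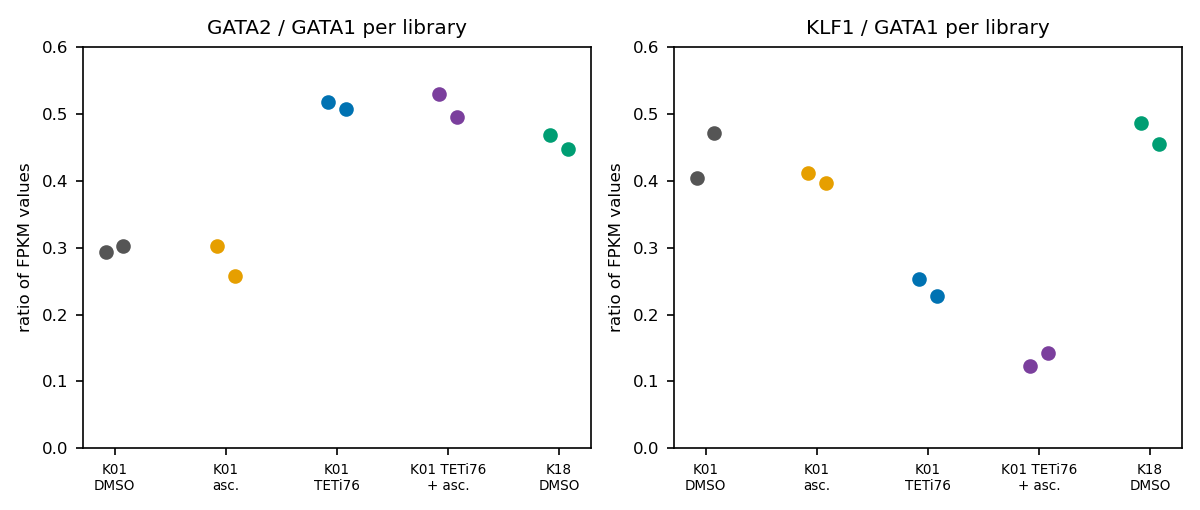
Ratio of FPKM values within each library for GATA2 over GATA1 (left) and KLF1 over GATA1 (right) in the 5 K562 groups, 1 point per library, with axes from 0. The 4 libraries with TETi76 lie between 0.495 and 0.529 for GATA2 over GATA1, and those with the combination lie lowest for KLF1 over GATA1, at 0.123 and 0.143.

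Called members of 7 of the 9 lists around the factors were all or mostly lower, while those of the NFE2 partners and of the myeloid factors were higher. Of 15 red cell membrane genes 10 fell and none rose (median -0.66), among them SPTB (log2 -1.38, adjusted p = 3e-05) and GYPC (log2 -1.01, adjusted p = 8.05e-06). TFRC, which rose with TETi76 without ascorbate, fell here from 117 and 112 to 69.2 and 69.7 FPKM (log2 -0.71, adjusted p = 3.41e-05). The difference between its changes with and without ascorbate was called by limma too (log2 -0.93, adjusted p = 0.0106). That call was lost without ascorbate replicate 2 or TETi76 replicate 1, and TFRC was named here after its values were seen. Of 10 haem genes 7 fell (median -0.41; 4 without ascorbate replicate 2, and 1, ALAD, named after its value was seen, was called higher without ascorbate replicate 1), with UROD at log2 -1.10 (adjusted p = 4.09e-06). Of 8 globins 4 fell (median -0.32), and HBQ1 reached 2.63 and 2.41 FPKM from 26.0 and 19.8 FPKM (log2 -2.75, adjusted p = 2.14e-05). Of 12 LMO2-LDB1 partners 6 fell (median -0.41), LDB1 by log2 -0.72 (adjusted p = 8.43e-05), and of 15 corepressors 6 fell (median -0.14). Of 8 NFE2 partners and competitors 4 rose and none fell (median 0.44), including MAFK (log2 0.95, adjusted p = 0.00618). Of 15 other erythroid factors 8 fell and 1 rose (median -0.44; 4 fell without ascorbate replicate 1, and none rose with any 1 library left out), STAT5A by log2 -1.44 (adjusted p = 2.14e-06). SPI1 rose by log2 1.47 (adjusted p = 0.00019). Of 4 megakaryocyte genes 3 fell and 1, ITGB3, rose (log2 0.93, adjusted p = 0.0109), the last lost without ascorbate replicate 2 or replicate 2 of the combination. ITGB3 had 0.802 and 0.705 FPKM with ascorbate and 2.11 and 2.57 FPKM with the combination. Here too it passed the filter on low values only through groups where it was higher. The erythroid marker sum was 9973 to 10426 FPKM with ascorbate and 7074 to 7289.9 FPKM with the combination, and the stromal or epithelial sum was 447 to 467 against 955 to 967 FPKM; their part in these differences was not tested.

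Whether ascorbate changed the response to TETi76 was asked by an interaction term and by comparing the combination with TETi76 alone. In the interaction 2 of the 9 factors were called, both lower, against 0.63% of all genes tested (0.351% lower and 0.279% higher). They were KLF1 (log2 -0.94, SE 0.16, adjusted p = 0.0469) and GFI1B (log2 -0.81, SE 0.12, adjusted p = 0.0257). Both calls were close to the threshold. KLF1 was lost in 7 of 8 fits that left out a library (adjusted p from 0.065 to 0.145) and GFI1B in all 8 (adjusted p from 0.052 to 0.122). NFE2 (log2 -0.53, SE 0.10, adjusted p = 0.053) and ZFPM1 (log2 -0.85, SE 0.28, adjusted p = 0.225) were not called, NFE2 passing only without the first library of the combination (adjusted p = 0.0393). For GFI1B the term includes its higher level with ascorbate alone, given above.

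Against TETi76 alone the combination gave lower KLF1 (14.4 and 18.1 against 35.0 and 29.3 FPKM, log2 -0.94, SE 0.12, adjusted p = 0.0125) and lower NFE2 (73.1 and 65.3 against 95.5 and 88.3 FPKM, log2 -0.40, SE 0.07, adjusted p = 0.0429). These were 2 of the 9 factors, against 0.726% of all genes tested (0.479% lower and 0.247% higher). KLF1 was lost without either TETi76 library (adjusted p = 0.103 and 0.0538) and NFE2 without replicate 2 of the combination (0.137) or either TETi76 library (0.2 and 0.135). LMO2 had 15.3 and 16.8 FPKM with the combination and 14.8 and 15.4 FPKM with TETi76 alone, so these groups nearly coincided (log2 0.09, SE 0.10, adjusted p = 0.767). This comparison and the 2 above share libraries and are not independent of one another.

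The K18 clone differed from K01 in a part of the circuit. With DMSO, GATA2 and ZFPM1 were higher in K18, NFE2 and GFI1B were lower, and GATA1, KLF1, TAL1, LMO2 and MYB were not called. That made 2 factors higher and 2 lower of 9, against 15.1% of all genes tested (6.86% higher and 8.21% lower). The median over the factors was 0.05, against 0 over all genes.

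GATA2 had 79.3 and 85.1 FPKM in K18, above 54.2 and 49.6 FPKM in K01 (log2 0.65, SE 0.08, adjusted p = 0.000667). NFE2 had 109 and 113 FPKM, below 151 and 153 FPKM (log2 -0.46, SE 0.07, adjusted p = 0.00253). These calls were kept whichever of the 4 libraries was left out. ZFPM1 had 11 and 11.7 FPKM, above 6.08 and 5.21 FPKM (log2 0.90, SE 0.19, adjusted p = 0.0149), but was lost without K01 replicate 2 (0.0971) or without either K18 library (0.071 and 0.0982). GFI1B had 34.4 and 32.9 FPKM, below 43.6 and 41.8 FPKM (log2 -0.34, SE 0.09, adjusted p = 0.0308), and was lost without any 1 of the 4 libraries (adjusted p from 0.0975 to 0.171) and with quantile normalization (0.0645).

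KLF1 had 82.5 and 86.3 FPKM in K18, above both K01 libraries, yet the difference was not called (log2 0.15, SE 0.12, adjusted p = 0.436). MYB had 68.6 and 61.4 FPKM, below both K01 libraries, and was not called (log2 -0.29, SE 0.10, adjusted p = 0.0834). GATA1 (169 and 189.9 FPKM), LMO2 (36.4 and 32.5 FPKM) and TAL1 (28.4 and 29.2 FPKM) overlapped K01. The GATA2 to GATA1 ratio was 0.468 and 0.448 in K18, and the KLF1 to GATA1 ratio was 0.487 and 0.455.

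Globins, red cell membrane genes and haem genes called in K18 were mostly lower. Calls in the other lists went in both directions, apart from 1 higher myeloid factor and none among the NFE2 partners and competitors. Over all genes tested 15.1% were called. Of 8 globins 6 were lower and none higher (median -0.56), with 4 to 6 lower when a library was left out. Of 15 red cell membrane genes 10 were lower and 1, TFRC, higher (median -0.59), with 6 lower without K01 replicate 1 or K18 replicate 2. HBA1 had 237 and 233 FPKM against 335 and 361 FPKM (log2 -0.56, adjusted p = 0.000382), with the same limit of near-identical copies. Of 10 haem genes 4 were lower (median -0.27), but 0 to 2 when a library was left out. SPI1 had 14.1 and 13.9 FPKM, against 9.49 and 6.23 FPKM (log2 0.78, SE 0.16, adjusted p = 0.0117), and was lost without K01 replicate 2 (0.0556) or either K18 library (0.0692 and 0.0707). Of 15 other erythroid factors 2 were higher and 2 lower (median -0.02), with 1 higher and 0 lower whichever library was left out. STAT5A was higher in K18 (155 and 152 against 120.1 and 109 FPKM, log2 0.42, adjusted p = 0.00458). Of 12 LMO2-LDB1 partners 1 was higher and 1 lower (median 0.10), and the lower one, LMO4, was not called with any 1 library left out. The higher one, LYL1, was lost without K01 replicate 2 or K18 replicate 2. Of 15 corepressors 1, KDM1A (LSD1), was higher and 1, RBBP7, was lower (median -0.06), and of 8 NFE2 partners and competitors none was called. Of 4 megakaryocyte genes 1 was higher and 2 lower, the higher one being the integrin subunit ITGA2B (10.3 and 8.73 against 2.55 and 2.35 FPKM, log2 1.61, adjusted p = 0.00243). The lower ones were GP1BB (log2 -1.44, adjusted p = 0.00101) and TUBB1 (log2 -1.04, adjusted p = 0.00955), the last lost without K01 replicate 1 or K18 replicate 2. TFRC, LMO4, LYL1, KDM1A, RBBP7 and ITGA2B, and below HBE1, HBG2, ALAS2 and EPOR, were named for this comparison after their values were seen. The summed erythroid markers were 4493 to 4709.6 FPKM in K18 and 8566 to 9919.8 FPKM in K01. Most of that gap was the embryonic globin HBE1 (1233 and 1255 against 4472 and 4787 FPKM, log2 -1.89, adjusted p = 1.55e-08). HBG2, ALAS2 and EPOR were not called, and the other erythroid markers were called lower. The 8 megakaryocyte markers summed to 11.1 to 11.7 FPKM in K18, most of it ITGA2B, and 2.98 to 4.07 FPKM in K01. The 7 stromal or epithelial markers summed to 274 to 288 FPKM in K18 and 401 to 439.8 FPKM in K01. The part of these markers in the differences of the factors was not tested. This comparison uses the same K01 DMSO libraries as the TETi76 comparison, so values shared between them are not independent.

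Genes with the pattern most like that of GATA1 and KLF1 were found by Pearson correlation of log2(FPKM + 1) over the 10 K562 libraries, among 5872 genes with a mean of at least 10 FPKM. For GATA1 they were APRT (0.988), TRAF7 (0.977) and ST6GAL1 (0.973). For KLF1 they were MYH10 (0.994), RECQL4 (0.992) and FLOT2 (0.988). The libraries fall into 5 groups, so these values describe shared group levels and carry no test.

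SIGM5 expressed a different set of the 10 factors. Its values are read counts, and CPM (counts scaled to library size alone) is not scaled for gene length, so levels are compared between libraries and not between genes. GATA1 had 2 and 3 counts in DMSO and 1 and 1 with TETi76, TAL1 had 1 and 1 against 2 and 1, and GFI1B had 0 and 0 against 1 and 0. A count of 0 allows up to 0.159 and 0.139 CPM in the 2 DMSO libraries (3 counts each, covering counting error only). KLF1 was also near the floor, with 11 and 8 counts in DMSO and 9 and 18 with TETi76. BCL11A, which was listed at or near 0 in K562, had 613 and 685 counts. In SIGM5 only EPOR of the 9 erythroid markers reached 1 CPM and HBG1, HBG2, HBZ and HBE1 were at 0, while all 9 myelomonocytic markers did.

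TETi76 did not move the factors past the threshold in SIGM5. edgeR called 0 of the 7 factors tested, against 4.13% of all genes (2.58% higher and 1.54% lower), and DESeq2 also called 0; 2 had an unadjusted p under 0.05 in edgeR. BCL11A had 32.9 and 31.9 CPM in DMSO and 23.7 and 25.2 CPM with TETi76 (log2 -0.40, SE 0.13, adjusted p = 0.0767). NFE2 had 51.8 and 47.2 CPM against 37.9 and 40.6 CPM (log2 -0.34, SE 0.12, adjusted p = 0.132). In both genes the groups did not overlap. Without DMSO replicate 2 both were called (adjusted p = 0.0327 for BCL11A and 0.029 for NFE2).

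MYB, LMO2, GATA2 and ZFPM1 were not called in SIGM5 either. MYB had 225 and 258 CPM against 252 and 244 CPM (log2 0.04, SE 0.11), and LMO2 had 83.7 and 92.9 CPM against 95.8 and 97.8 CPM (log2 0.13, SE 0.11). GATA2 had 44.7 and 38.8 CPM against 37.8 and 39.9 CPM (log2 -0.11, SE 0.12), and ZFPM1 had 9.72 and 6.05 CPM against 7.15 and 6.69 CPM (log2 -0.18, SE 0.21). The MYB, GATA2 and ZFPM1 groups overlapped, and LMO2 lay slightly above DMSO in both TETi76 libraries.

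The difference between the TETi76 effects of K01 and SIGM5 was tested directly for the 6 factors measured in both lines. LMO2 (difference in log2 change -1.19, SE 0.15, adjusted p = 3.35e-06) and MYB (-0.94, SE 0.14, adjusted p = 5.2e-05) had a lower change in K01 than in SIGM5. GATA2 had a higher change in K01 than in SIGM5 (0.50, SE 0.15, adjusted p = 0.0211). None of these factors was called in SIGM5 alone. Over all 9740 genes tested in both lines 12% were called, 7.15% lower and 4.87% higher. KLF1 (-1.40, SE 0.54, adjusted p = 0.094), NFE2 (-0.39, SE 0.14, adjusted p = 0.0632) and ZFPM1 (0.53, SE 0.29, adjusted p = 0.245) were not called. The GATA2 call was lost without K01 DMSO replicate 2, K01 TETi76 replicate 1, SIGM5 DMSO replicate 1 or either SIGM5 TETi76 library (adjusted p from 0.0723 to 0.193). The lines were deposited in different units and fitted separately, so only the changes are compared.

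**Figure D5:**
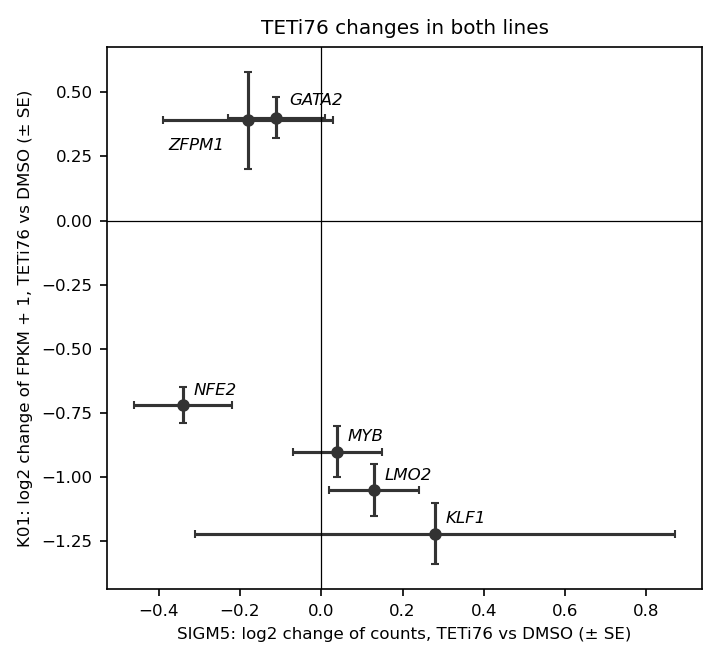
Log2 change with TETi76 in SIGM5 (x axis, counts) against that in K01 (y axis, FPKM + 1) for the 6 factors tested in both lines, with bars of ± SE. LMO2 and MYB lie at -1.05 and -0.90 in K01 but at 0.13 and 0.04 in SIGM5, and KLF1 has a wide SIGM5 error of 0.59.

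Depth was uneven between the tables. SIGM5 libraries held 18893636 to 23639198 counts. K562 depth is not given in FPKM and was estimated from the spacing of low values to run from 4.57 to 8.93 M reads. This is rough, since 41.4% to 53.5% of those values lay within 0.1 read of a whole number.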

How the data were processed

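Gene expression was read from 2 deposited tables and their single-sample files. For SIGM5 the authors deposited whole-number read counts per gene. For K562 the deposited values were FPKM, recognised from the values although the table is named as counts; whether fragments or single reads were scaled is unknown. Per the submitters' processing notes the genome was hg19 and the tools were STAR, edgeR 3.24.3 and limma 3.38.3; which step made which table is not given in the sources used here.

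In K562, 26 entries with a number for a name (at most 0.0657% of a library's FPKM sum) and 2279 short-RNA entries were left out. Among the short-RNA entries, MIR6723 and MIR4461 together held 29.6% to 36.4% of a library's FPKM sum. The remaining values were not rescaled in the main fit. Genes with at least 1 FPKM in at least 2 libraries (12530) entered 1 limma 3.58.1 fit of all 5 groups (log2(FPKM + 1), with trend and robust options), which understates changes near 1 FPKM. SIGM5 counts (11340 genes after filterByExpr) were tested with edgeR 4.0.16 (quasi-likelihood, TMM); DESeq2 1.42.0 was an alternative. The line difference used limma effects with Satterthwaite degrees of freedom and, for SIGM5, log2 CPM with a prior count of 2. Tests were two-sided, adjusted by Benjamini-Hochberg within each comparison, with a threshold of 0.05. The fits were tested on simulated data.

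The 10 factors and the gene lists were chosen with earlier results of these data known. All 10 factors were named whatever their result. From each list, up to 3 members called in the K01 TETi76 comparison with the largest log2 change and a mean of at least 10 FPKM in the higher group were named. Some of these members are not reported here. Replicate numbers were not treated as pairs, since in K562 same-numbered libraries deviated together with a correlation of only -0.02 to 0.05. Replicates correlated at 0.975 or more in K562 and 0.99 or more in SIGM5. Alternatives were other pseudocounts (0.1 and 0.5), no filter, other scalings, a replicate block, fitting only the groups compared and leaving out each library. The proteins of these factors are not analysed here.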

Additional observations from a re-analysis of the deposited data

Results flagged for a closer look

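The interaction term in limma called 2 factors for a response to TETi76 that differed with ascorbate, and neither call was stable. For KLF1 the term was log2 -0.94 (SE 0.16, adjusted p = 0.0469), the fall being -1.22 without and -2.15 with ascorbate. For GFI1B it was log2 -0.81 (SE 0.12, adjusted p = 0.0257), the fall being -0.41 without and -1.22 with ascorbate. Both adjusted p-values rose above 0.05 without a filter on low values (0.0878 and 0.0533) and with a replicate block (0.0767 and 0.0509). The same held with only the groups compared (0.0895 and 0.0567), and most or all fits that left out a library lost these calls, as given above. GFI1B was not called by limma in the combination against TETi76 alone (log2 -0.33, adjusted p = 0.131).

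The response to TETi76 differed between K01 and SIGM5 for 3 factors by the test of the difference itself. For LMO2 the difference was -1.19 and for MYB it was -0.94 on the log2 scale, and for GATA2 it was 0.50. LMO2 and MYB were called whichever of the 8 libraries was left out, whereas the GATA2 call was lost for 5 of the 8.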

How the results depend on the processing

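In K01, the factors called lower with TETi76 numbered 4 to 6 and those called higher 0 to 1 when a library was left out; with ascorbate present the ranges were 6 to 7 and 0 to 0, and the count higher was 0 when only the groups compared were fitted. For the combination against TETi76 alone, the count lower was 1 with no filter, with quantile normalization and with the replicate block, 0 with only the groups compared, and 0 to 2 with a library left out. For the interaction, the count lower was 0 with no filter, 1 with quantile normalization, 0 with the replicate block, 0 with only the groups compared, and 0 to 1 with a library left out. In K18 the count lower was 1 with quantile normalization, and with a library left out 1 to 1 were lower and 1 to 2 higher. In SIGM5 the replicates' differences correlated at -0.16, and with crossed pairing as a block, chosen after seeing the data, 2 factors were called lower (NFE2, adjusted p = 0.0196, and BCL11A, 0.00726); leaving out a library gave 0 to 2. For the line difference, leaving out a library gave 0 to 2 higher and 2 to 3 lower. The replicate block in K562 ended 6 calls among the genes named and changed no direction; the numbers do not pair the libraries. No share of all genes in the same fits was set beside the counts with a library left out, here or for the lists. Fewer calls among these factors therefore cannot be told apart from fewer calls over all genes. The cause of the shifts in these counts was not tested.

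Some log2 changes that were not called turned sign. With ascorbate alone GATA2 had -0.00028 with median-ratio scaling, -0.03 with quantile normalization and -0.06 to 0.07 with a library left out, and KLF1 had -0.05 to 0.04. With ascorbate present TAL1 had 0.04 with quantile normalization and -0.18 to 0.10 with a library left out. The MYB interaction was 0.01 with quantile normalization and -0.17 to 0.10 with a library left out. In K18, GATA1 ran from -0.04 to 0.13 and TAL1 from -0.11 to 0.03 with a library left out. In SIGM5 the same ranges were -0.21 to 0.0011 for GATA2, -0.33 to 0.71 for KLF1, -0.50 to 0.20 for ZFPM1 and -0.05 to 0.13 for MYB. The errors were largest for ZFPM1 in K562 (SE 0.19) and KLF1 in SIGM5 (SE 0.59), both low in those cells; precision was not tested against depth.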
